A study of Homo sapiens with 9 samples.

Results

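The APOBEC3 cytidine deaminases are the 7 genes APOBEC3A, APOBEC3B, APOBEC3C, APOBEC3D, APOBEC3F, APOBEC3G and APOBEC3H, and they were taken by symbol from the 60617 gene identifiers of the count tables. Their expression was compared in 9 RNA-seq libraries of PC-3, an established cell line from a bone metastasis of a human prostate carcinoma that lacks androgen signalling. The 3 control libraries came from vehicle-treated cells, where the vehicle was sulfuric acid and ethanol in PBS. A further 3 libraries came from cells given 1 µM decitabine, a cytidine analogue that traps DNA methyltransferases and so lowers DNA methylation, and 3 came from cells given 1 µM decitabine together with 200 µM S-adenosylmethionine (SAM), the methyl donor of those enzymes. All cells were treated for 5 days, and cells given SAM alone were not analysed here. The last group is called the combination treatment, and the comparison of combination with decitabine asked what SAM added to the drug. Nothing in the labels ties the 3 libraries of a group to separate cultures, so p-values measure the spread between these libraries, which may be technical, and all of them stem from a single cell line.

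APOBEC3 enzymes convert cytosine to uracil in single-stranded DNA. They are known as restriction factors: packaged into virions, they mutate the first DNA strand of retroviruses, and several of them also hold back endogenous retroelements. APOBEC3A, APOBEC3C and APOBEC3H carry a lone zinc-coordinating deaminase domain, whereas APOBEC3B, APOBEC3D, APOBEC3F and APOBEC3G carry a pair of them. Most members can be induced by interferon to a degree that depends on the cell type, and APOBEC3G is best known from lymphocytes and myeloid cells. APOBEC3B is a nuclear enzyme that many carcinoma cells express and that has been linked, with APOBEC3A, to mutations of cytosines following a thymine in tumour genomes.

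In GENCODE release 44 on GRCh38, the 7 genes lay on the plus strand of chromosome 22 in a tandem cluster of 151 kb. APOBEC3A came first, at chr22:38952741-38963184, followed by APOBEC3B at chr22:38982347-38992804, APOBEC3C at chr22:39014257-39020352 and APOBEC3D at chr22:39021113-39033277. APOBEC3F at chr22:39040604-39055972, APOBEC3G at chr22:39077067-39087743 and APOBEC3H at chr22:39097224-39104067 completed the cluster. Of the members, 1 was matched in the RefSeq promoter table (GRCh38.p14), which gives the 250 bases before and the 50 bases after a gene's start. APOBEC3A, APOBEC3B, APOBEC3C, APOBEC3D, APOBEC3F and APOBEC3G were not matched. The APOBEC3H sequence, chr22:39096994-39097293 on the plus strand, is shown because decitabine acts on the methylation of CpG dinucleotides and APOBEC3H counts were nearly all in treated libraries. Its CpG is in capitals.
APOBEC3H promoter: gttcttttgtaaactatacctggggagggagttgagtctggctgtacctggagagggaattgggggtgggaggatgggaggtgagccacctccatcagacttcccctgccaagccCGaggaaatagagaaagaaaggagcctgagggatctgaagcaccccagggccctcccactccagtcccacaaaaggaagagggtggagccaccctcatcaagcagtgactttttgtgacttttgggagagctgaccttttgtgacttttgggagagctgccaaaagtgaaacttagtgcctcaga
These 300 bases held 1 CpG and had a GC content of 53.3%. Of the 35116 promoters in the table, 11% held 1 CpG or none, and the median was 14. The letters GAAANNGAAA, a core of the interferon-stimulated response element, were searched on both strands and were not in this window, while 3.57% of the promoters held them. No methylation was measured in these libraries.

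The libraries were of nearly equal depth, with 21934307 to 22489684 estimated counts each, and 18532 genes had enough counts to be tested. Replicates of a group were separate libraries: the chi-square per degree of freedom between their counts was 5.86 to 23.45, with the highest value between combination replicates 1 and 3. Markers that PC-3 cells carry (5 epithelial genes and VIM, a mesenchymal gene) summed to 2127 to 2269 CPM (counts scaled to the effective library size by TMM) in controls, 1393 to 1542 CPM with decitabine and 1203 to 1414 CPM with the combination. VIM fell from 1262 CPM to 590 and 510 CPM. KRT18 fell from 426 to 358 and 316 CPM, and KRT19 from 360 to 241 and 229 CPM. KRT8 rose from 120 to 264 and 208 CPM, and CDH1 from 1.87 to 14.4 and 16.9 CPM. The androgen receptor, a luminal prostate marker, was at 0.0659 CPM in the controls, and KLK3, which encodes PSA, was listed at 0 in all 9 libraries. Of 12 lymphoid and myeloid markers, 3 (CD2, MS4A1 and NKG7) were at 0 in all libraries. The 12 summed to 20.1 to 21.8 CPM in controls, 15.8 to 17 CPM with decitabine and 17.1 to 20.1 CPM with the combination, and CD33 gave most of this. Among the same markers, PTPRC (CD45) rose from 0.0828 CPM in controls to 1.06 CPM with decitabine and 0.735 CPM with the combination, and CD14 rose from 0.182 to 0.648 and 0.795 CPM. The part of these markers in the APOBEC3 results was not tested.

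In control cells the family consisted almost wholly of APOBEC3C and APOBEC3B. To set members beside each other, each level was divided by the length of the gene's longest protein-coding transcript. On this scale of CPM per kb, APOBEC3C stood at 63 ± 6.11 and APOBEC3B at 16.2 ± 1.4 (SD, n = 3 libraries here and below). APOBEC3G followed at 0.444 ± 0.143 and APOBEC3D at 0.368 ± 0.0889, and the libraries of these genes overlapped in level. APOBEC3F was lower, at 0.0921 ± 0.0128, without overlap with APOBEC3D. APOBEC3A, at 0.0223 ± 0.0193, and APOBEC3H, at 0.0157 ± 0.0272, rested on 2 counts and 1 count in all 3 controls together and could not be ordered. In bulk RNA such values are averages over cells, and fewer expressing cells cannot be told apart from less RNA per cell.

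Decitabine raised the members unevenly: among the 5 tested, APOBEC3G and APOBEC3F rose most, APOBEC3D and APOBEC3B rose less, and APOBEC3C fell. APOBEC3H, too low to pass the filter, is given by its counts. Of the 7 members 5 passed the filter on low counts, and 4 of these 5 were upregulated and 1 was downregulated at an adjusted p under 0.05 (edgeR's quasi-likelihood test, Benjamini-Hochberg adjustment over all genes tested). The background is high in these cells, since 36.3% of all genes tested were called higher and 32.5% lower with decitabine, 68.8% in all. For the same 5 members, 4 had decitabine libraries all above the controls and 1 had them all below, where 38.1% of genes did not overlap upward and 34.8% downward. The log2 fold change had a median of 1.1 over the 5 members and of 0.035 over all genes.

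**Figure D1:**
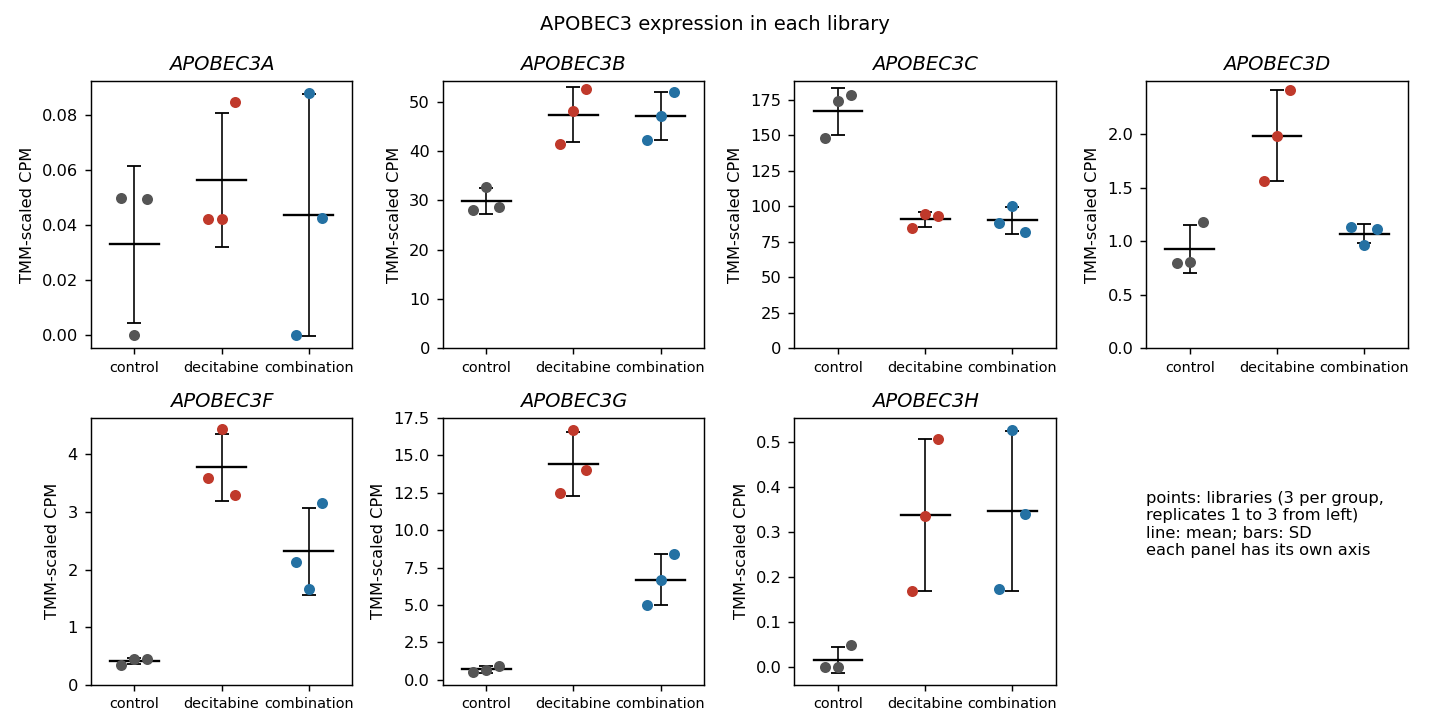
Expression of the 7 members in each library, in CPM after TMM scaling (y axis, a separate scale in each panel), for 3 control, 3 decitabine and 3 combination libraries; points are libraries, horizontal lines are means and bars are SD. APOBEC3G reached 12.5 to 16.7 CPM with decitabine against 0.497 to 0.938 CPM in controls and 5.01 to 8.39 CPM with the combination, while APOBEC3C fell to much the same levels under both treatments.

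APOBEC3G, a cytoplasmic restriction factor that favours cytosines preceded by another cytosine, was nearly silent in controls, with 10, 13 and 19 counts per library, or 0.497, 0.65 and 0.938 CPM. It reached 12.5, 16.7 and 14 CPM in the decitabine libraries, backed by 295, 395 and 331 counts. Every decitabine library was thus far above every control. The log2 fold change was 4.36 ± 0.25 (SE; 95% interval 3.82 to 4.9; edgeR adjusted p = 3.4e-09), a 20.5-fold rise, and 5.5% of all genes tested had a larger log2 fold change.

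APOBEC3F, another cytoplasmic retroviral restriction factor, had 7, 9 and 9 counts in the controls, equal to 0.348, 0.45 and 0.444 CPM. With decitabine it stood at 3.59, 4.43 and 3.3 CPM. The groups did not overlap, and the log2 fold change was 3.17 ± 0.3 (95% interval 2.53 to 3.81; edgeR adjusted p = 4.2e-07), or 9.01-fold.

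APOBEC3D, which restricts retroviruses less strongly than APOBEC3G, went from 0.794, 0.8 and 1.18 CPM to 1.56, 1.98 and 2.41 CPM. The lowest decitabine library was above the highest control, but by little compared with the range within each group. The log2 fold change was 1.1 ± 0.26 (95% interval 0.53 to 1.66; edgeR adjusted p = 0.0019), or 2.14-fold, on 16 to 57 counts per library.

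APOBEC3B was already well expressed and rose moderately, from 28, 32.8 and 28.7 CPM in controls to 41.4, 48.1 and 52.5 CPM. The log2 fold change was 0.67 ± 0.1 (95% interval 0.44 to 0.89; edgeR adjusted p = 5.5e-05), or 1.59-fold. A rise of this size was common in these cells, as 28.6% of genes had a larger log2 fold change.

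APOBEC3C, the most abundant member and a weak inhibitor of HIV in its common human form, moved the other way. Its controls were at 148, 174 and 178 CPM and its decitabine libraries at 84.7, 94.4 and 92.9 CPM. The level fell to 0.544 of the control level, a log2 fold change of -0.88 ± 0.09 (95% interval -1.07 to -0.68; edgeR adjusted p = 9.5e-07), and 8.88% of genes had a lower log2 fold change.

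APOBEC3H and APOBEC3A were below the count filter. APOBEC3H, a member whose human haplotypes differ in protein stability, had 0, 0 and 1 counts in controls and 4, 8 and 12 counts with decitabine. Summed over libraries and scaled for depth, the ratio was 20.4, with an exact binomial 95% interval of 3.33 to 840 that covers counting error only. Where no filter was applied, its log2 fold change was 3.92 (edgeR adjusted p = 0.00018), beside 3.13 for APOBEC3F in the same fit. APOBEC3A, which is strongly inducible by interferon in monocytes and keratinocytes, stayed at 1, 0 and 1 counts in controls and 1, 1 and 2 with decitabine, a ratio of 1.7 (0.244 to 18.8), so that a difference was not detectable at this depth.

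The combination was compared with the same 3 control libraries, so this comparison is not independent of the previous one. Of the 5 members tested, 3 were upregulated (APOBEC3B, APOBEC3F and APOBEC3G), 1 was downregulated (APOBEC3C) and APOBEC3D was not called, against a background of 35.9% of genes called higher and 31.3% called lower, 67.2% in all. The libraries of these 4 members did not overlap with the controls, in the same directions, as was so upward for 38% and downward for 33.6% of genes. The median log2 fold change was 0.66 over these 5 members and 0.048 over all genes.

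APOBEC3G reached 5.01, 6.64 and 8.39 CPM in the combination libraries, above every control. Its log2 fold change against controls was 3.25 ± 0.26 (edgeR adjusted p = 8.9e-08), a 9.54-fold rise. APOBEC3F, at 2.13, 1.67 and 3.15 CPM, was 5.55-fold above controls, a log2 fold change of 2.47 ± 0.31 (edgeR adjusted p = 7.8e-06). APOBEC3D, at 1.13, 0.968 and 1.11 CPM, lay within the range of the controls, and its log2 fold change of 0.21 had a 95% interval of -0.4 to 0.81 (edgeR adjusted p = 0.53). That interval leaves room for a rise of the size of APOBEC3B's as well as for a slight decrease.

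APOBEC3B reached 42.2, 47.1 and 51.9 CPM with the combination, 1.58-fold above controls (log2 fold change 0.66 ± 0.1, edgeR adjusted p = 6.4e-05). APOBEC3C fell to 88.1, 100 and 81.7 CPM, or 0.54 of the control level (log2 fold change -0.89 ± 0.09, edgeR adjusted p = 9e-07). APOBEC3H had 4, 12 and 8 counts, again above the controls' lone count, with a ratio of 21 and an interval of 3.42 to 862. APOBEC3A had 0, 2 and 1 counts, a ratio of 1.31 with an interval of 0.15 to 15.7.

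**Figure D2:**
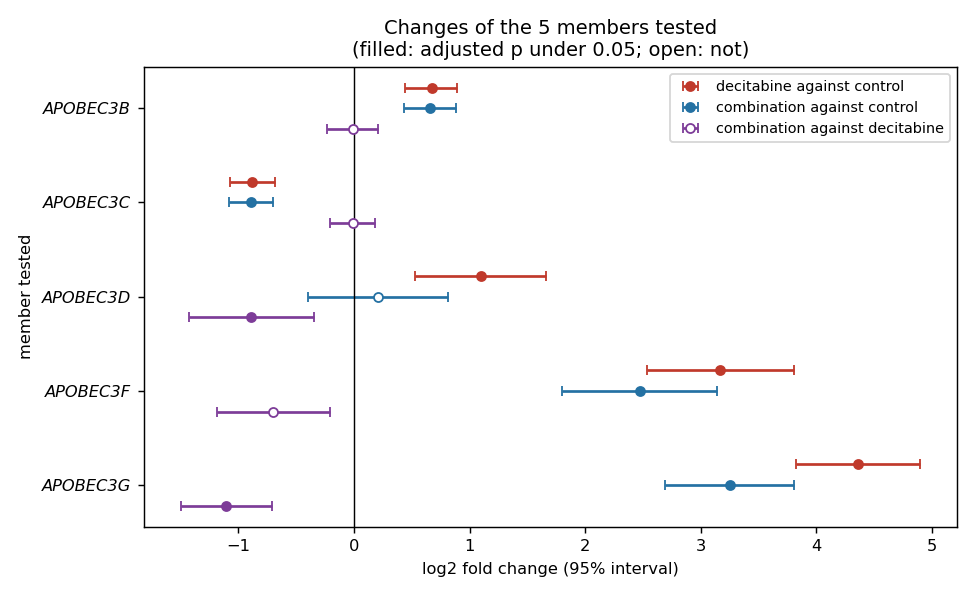
Log2 fold changes (x axis) of the 5 members tested (y axis) in each of the 3 comparisons, with 95% intervals from the edgeR fit as bars; filled points had an adjusted p under 0.05 and open points did not. For APOBEC3B and APOBEC3C the combination and decitabine differed by -0.01 each, whereas APOBEC3G was lower by -1.11 and APOBEC3D by -0.89.

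Direct comparison of the combination with decitabine separated the members. APOBEC3G and APOBEC3D were downregulated by the edgeR test, and 3 of the 5 tested (APOBEC3B, APOBEC3C and APOBEC3F) were not called. The fitted log2 fold changes of all 5 were at or below -0.01. In this comparison 8.02% of all genes were called lower and 7.67% higher, 15.7% in all, and the median log2 fold change was -0.7 over the 5 members and 0.002 over all genes. The decitabine libraries are the same ones that were set against the controls.

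APOBEC3G in the combination was 0.465 of its level with decitabine alone. The lowest decitabine library, at 12.5 CPM, was above the highest combination library, at 8.39 CPM, and the log2 fold change was -1.11 ± 0.18 (95% interval -1.5 to -0.71; edgeR adjusted p = 0.0023). Of all genes tested, 1.94% had a lower log2 fold change in this comparison. The call held in all 17 alternative analyses, with log2 fold changes from -1.3 to -0.94.

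APOBEC3D was 0.54 of its level with decitabine alone, a log2 fold change of -0.89 ± 0.25 (95% interval -1.43 to -0.35; edgeR adjusted p = 0.029). The groups did not overlap, at 1.56 to 2.41 CPM against 0.968 to 1.13 CPM, as was so downward for 16.8% and upward for 17.2% of genes, but the call was lost when decitabine replicate 2 (adjusted p = 0.092), decitabine replicate 3 (0.086), combination replicate 1 (0.074) or combination replicate 2 (0.13) was left out of the edgeR fit. APOBEC3F narrowly missed the threshold, with a log2 fold change of -0.7 ± 0.23 (95% interval -1.19 to -0.21; edgeR adjusted p = 0.053). Its combination libraries, at 1.67 to 3.15 CPM, were all below its decitabine libraries, at 3.3 to 4.43 CPM, and leaving out a library moved the log2 fold change from -0.51 (edgeR adjusted p = 0.23, without combination replicate 2) to -0.98 (edgeR adjusted p = 0.0081, without combination replicate 3). Without decitabine replicate 2 it was -0.57 (edgeR adjusted p = 0.21).

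APOBEC3B and APOBEC3C had nearly the same levels under both treatments. For APOBEC3B the log2 fold change of combination against decitabine was -0.01 with a 95% interval of -0.23 to 0.21. For APOBEC3C it was -0.01 with an interval of -0.21 to 0.18. For APOBEC3H the 24 counts in each group gave a ratio of 1.03, with an interval of 0.558 to 1.89. Differences within these intervals were not detectable here.

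Combination replicate 3 was the library of its group with the highest APOBEC3G level (8.39 CPM) and the highest APOBEC3F level (3.15 CPM). It also had the highest level of interferon-stimulated genes in that group: the median log2(CPM + 0.5) of 20 such genes was 5.8, 6.05 and 7.46 in combination replicates 1, 2 and 3. In the other groups the order differed: control replicate 3 had the highest APOBEC3G level of the controls (0.938 CPM) and their lowest median (3.9, against 4.53 and 4.56), and decitabine replicate 1 had the lowest APOBEC3G level of its group (12.5 CPM) and its highest median (8.95, against 8.71 and 8.62). Without combination replicate 3, APOBEC3G differed between combination and decitabine by a log2 fold change of -1.3 (edgeR adjusted p = 0.00027).

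Changes of opposite direction altered the make-up of the family more than its total. The summed level of the 7 members was 80.1 ± 7.08 CPM per kb in controls, 71.1 ± 6.12 with decitabine and 65.1 ± 4.26 with the combination. When libraries were scaled by size alone, the sums were 71.9, 75.8 and 68.2 CPM per kb, so that the direction from controls to decitabine turned. Without APOBEC3C the sum, under TMM, rose from 17.1 ± 1.36 CPM per kb to 36.9 ± 4.17 and 31.1 ± 3.9. APOBEC3C made up 78.6 ± 1.22% of the summed level in controls, 48.3 ± 1.54% with decitabine and 52.3 ± 4.68% with the combination. APOBEC3B went from 20.2 ± 1.5% to 36 ± 1.75% and 39.2 ± 3.07%. APOBEC3G went from 0.549 ± 0.144% to 12.9 ± 1.22% and 6.53 ± 1.46%. By mean level per kb it was the third member in every group. It overlapped with APOBEC3D in controls, and under both treatments it did not overlap with its neighbours in the order.

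**Figure D3:**
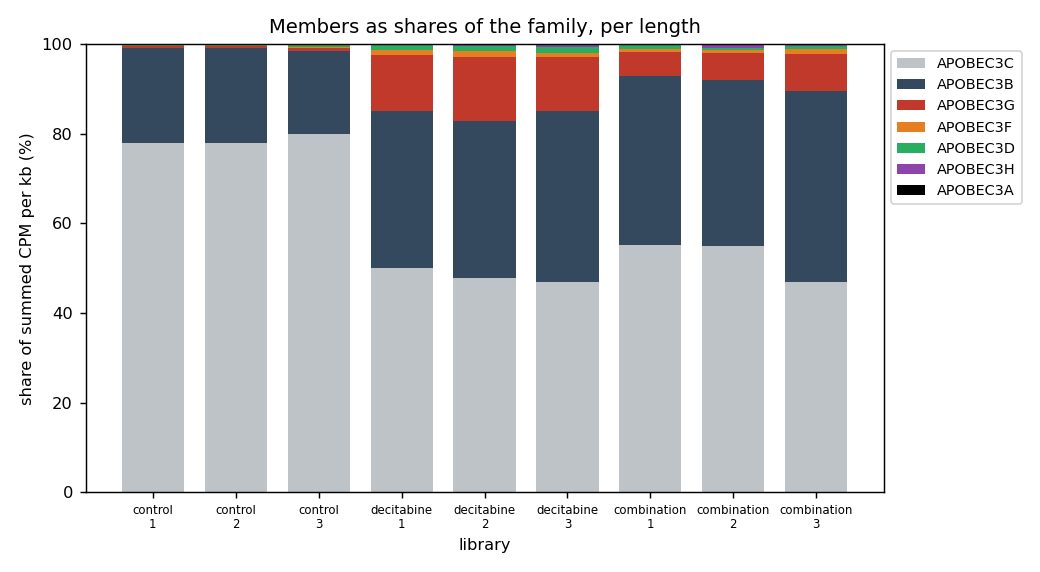
Share of each member in the summed CPM per kb of the 7 members (y axis, percent) in each of the 9 libraries (x axis), as stacked bars. Lengths are those of the longest protein-coding transcript, and the share of APOBEC3G is smaller with the length of all exons. APOBEC3C took 77.9% to 80% in controls and 46.9% to 55.1% in the treated libraries, and APOBEC3G took 12% to 14.3% with decitabine and, under the combination, 5.29% to 8.14%.

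Below APOBEC3G the order shifted. With decitabine, APOBEC3F (0.84 ± 0.13 CPM per kb) and APOBEC3D (0.79 ± 0.169) overlapped, and APOBEC3H (0.323 ± 0.162) and APOBEC3A (0.0382 ± 0.0166) followed. With the combination, APOBEC3F (0.516 ± 0.168) overlapped with APOBEC3D (0.425 ± 0.0352), and APOBEC3D overlapped with APOBEC3H (0.332 ± 0.169). APOBEC3H did not overlap with APOBEC3A (0.0295 ± 0.0298). The per-length level of APOBEC3G depends on the length used, since its exons together span 5375 bases and its longest protein-coding transcript 1564 bases. With the exon length its level was 0.129, 2.68 and 1.24 CPM per kb in controls, decitabine and combination, against 0.444, 9.2 and 4.27 with the transcript length. In controls it then stood below APOBEC3D, at 0.366 CPM per kb with the exon length, and its share of the family is smaller on this scale.

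APOBEC3 genes arose by duplication, and kallisto, the counting tool, assigns reads by short words of sequence, so reads from stretches that members share are split by estimate. In the GENCODE transcripts, the share of a gene's distinct 31-base words found in no other gene was 98.1% for APOBEC3H, 89.4% for APOBEC3C, 85.5% for APOBEC3G, 74.3% for APOBEC3F, 70.7% for APOBEC3A and 60.1% for APOBEC3B. APOBEC3G shared 7.38% of its words with other members, mostly with APOBEC3F, and APOBEC3B shared 18.4% with APOBEC3A. For APOBEC3D 9.38% of words were its own, because 82.1% also occur in a read-through gene (ENSG00000284554, chr22:39014363-39033276) that spans APOBEC3C and APOBEC3D. That gene was given 0 counts in all 9 libraries. The APOBEC3D counts are therefore uncertain, since reads of the read-through transcript and of APOBEC3D can hardly be told apart. APOBEC3B-AS1, an antisense gene that shares 9.66% of APOBEC3B's words, had between 0 and 3 counts per library, and the pseudogene APOBEC3AP1 had 0.

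**Figure D4:**
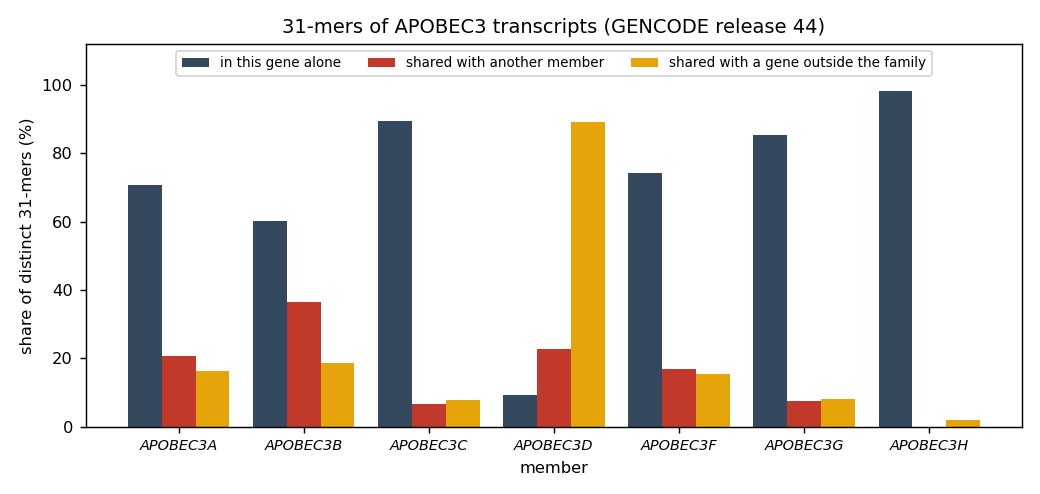
Share of each member's distinct 31-base words (y axis, percent) that occur in its own GENCODE release 44 transcripts alone, in another member or in a gene outside the family; a word can count in both of the last groups. APOBEC3H had 98.1% words of its own and APOBEC3D 9.38%.

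The antiviral genes that surround the APOBEC3 family in function were examined as lists. For the counts in this and the following lists, 36.3% of all genes tested were called higher and 32.5% lower with decitabine. With the combination 35.9% were higher and 31.3% lower than controls, and 7.67% were higher and 8.02% lower than with decitabine. All 20 interferon-stimulated genes were tested and upregulated with decitabine, and the median of their log2 fold changes was 4.34. With the combination 19 were upregulated, with a median of 2.19, and 16 were downregulated against decitabine, with a median of -2.05. The log2 fold changes of APOBEC3G in these 3 comparisons were 4.36, 3.25 and -1.11. IFI27 went from 7.52 CPM in controls to 630 and 175 CPM, and RSAD2 (viperin) from 2.35 to 269 and 40.5 CPM. For IFI27, the log2 fold change of combination against decitabine was -1.85 (edgeR adjusted p = 0.058). For RSAD2, the corresponding log2 fold change was -2.73 (edgeR adjusted p = 0.085).

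Of 16 other factors that restrict retroelements or degrade their nucleic acids, 15 were tested. With decitabine 10 were upregulated and 3 downregulated, with a median of 0.89, and against controls the combination had 4 upregulated and 3 downregulated, with a median of 0.18. Against decitabine the combination had 2 upregulated and 9 downregulated, with a median of -0.96. MX2, an inhibitor of HIV nuclear import, went from 1.53 CPM to 114 and 15.7 CPM. Its combination libraries had an SD of 18.9 CPM, and combination against decitabine was not called (log2 fold change -2.85, edgeR adjusted p = 0.058). HELZ2, a helicase, went from 43.6 to 397 and 116 CPM. The 3 genes that fell with decitabine were the subunits of ribonuclease H2, which removes RNA from RNA-DNA hybrids, and RNASEH2C is named after its values were seen. RNASEH2A went from 102 to 40.6 and 52.7 CPM, and RNASEH2B from 24.5 to 18.1 and 23.3 CPM.

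APOBEC3B transcription is known to be held down by the DREAM complex and E2F factors and raised by non-canonical NF-κB signalling downstream of protein kinase C. Of 13 DREAM and E2F genes, decitabine lowered 9 and raised 1, with a median of -0.54, and the combination lowered 8 and raised 1, with a median of -0.5. RBL1 (p107), a repressor subunit, fell by 1.15 on the log2 scale with decitabine and by 1.09 with the combination. TFDP1, the partner of E2F proteins, fell by 1.09 and 1.01. LIN54, the DNA-binding subunit, rose by 0.31 with decitabine (edgeR adjusted p = 0.027) and was at 0.24 with the combination (adjusted p = 0.076). Combination against decitabine had 3 higher and 1 lower in this list. The list is not made up of repressors alone, and the part of its genes in the APOBEC3B rise was not tested.

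Of the 6 NF-κB genes, 3 rose and 1 fell with decitabine, and 2 rose and 1 fell with the combination. RELB, a non-canonical subunit, went from 3.94 CPM to 21 and 19.7 CPM, and NFKB2, its partner, from 33.5 to 115 and 96.4 CPM. PRKCA, which encodes a protein kinase C, went from 133 to 41.7 and 52.3 CPM. For RELB the combination differed from decitabine by a log2 fold change of -0.09 (edgeR adjusted p = 0.85). For NFKB2 that difference was -0.26 (edgeR adjusted p = 0.11), and 1 gene of the list was called, PRKCA, at 0.33 (edgeR adjusted p = 0.035).

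Uracils made by APOBEC3 enzymes are removed by base excision repair. Of 13 genes for uracil and abasic site repair, all tested, decitabine lowered 7 and raised 2, with a median of -0.35, and the combination lowered 7 and raised 3, with a median of -0.24. LIG3, a DNA ligase, fell by 1.03 on the log2 scale with decitabine and by 0.94 with the combination, and REV1, a translesion polymerase, by 0.95 and 1.07. POLB, the gap-filling polymerase, rose by 0.67 and 0.72, and HMCES, which shields abasic sites in single-stranded DNA, by 0.25 and 0.52. Against decitabine, the combination had 2 of these genes higher. UNG, the main uracil glycosylase, was at 170, 166 and 200 CPM and was not called in any comparison.

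Among the other deaminases, APOBEC2, a muscle protein without known deaminase activity, had no count in the controls. It reached 0.732 CPM with decitabine and 0.247 CPM with the combination, at least 14.7-fold and 4.95-fold higher than a floor of 3 counts over the 3 control libraries together. The combination was lower than decitabine by a log2 fold change of -1.55 (edgeR adjusted p = 0.042). APOBEC1 and APOBEC4 were too low to test. Of 5 ADAR family genes, which encode adenosine deaminases acting on RNA or their testis relatives, 3 were tested. ADAR stood at 433 CPM in controls, 856 CPM with decitabine and 429 CPM with the combination, with log2 fold changes of 0.98 (edgeR adjusted p = 0.00013), -0.01 (0.95) and -1.0 (0.0026) in the 3 comparisons. ADAD1, a testis gene, had no count in the controls and, against the same floor, was at least 19.6-fold higher with decitabine and 32.9-fold higher with the combination. CDA, which deaminates free cytidine and also decitabine, rose from 24.2 to 67.9 and 78.1 CPM, and DCTD, the dCMP deaminase, fell from 58 to 31.1 and 33.5 CPM.

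The position of the genes on the chromosome was examined because the members are neighbours. Of 24 protein-coding genes within 500 kb of the cluster, 20 were tested. Decitabine raised 6 and lowered 10, where the median log2 fold change was -0.22, and the combination raised 5 and lowered 8, with a median of -0.04. Over all genes tested, 36.3% were called higher and 32.5% lower with decitabine, and 35.9% and 31.3% with the combination. The nearest gene on the centromeric side was CBX6, a Polycomb subunit, which had log2 fold changes of -0.98 with decitabine and -0.99 with the combination. On the telomeric side it was CBX7, also a Polycomb subunit, with 0.35 (edgeR adjusted p = 0.0061) with decitabine and 0.23 (edgeR adjusted p = 0.055) with the combination. Within the cluster itself, APOBEC3C, which fell, lies between APOBEC3B and APOBEC3D, which rose with decitabine.

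**Figure D5:**
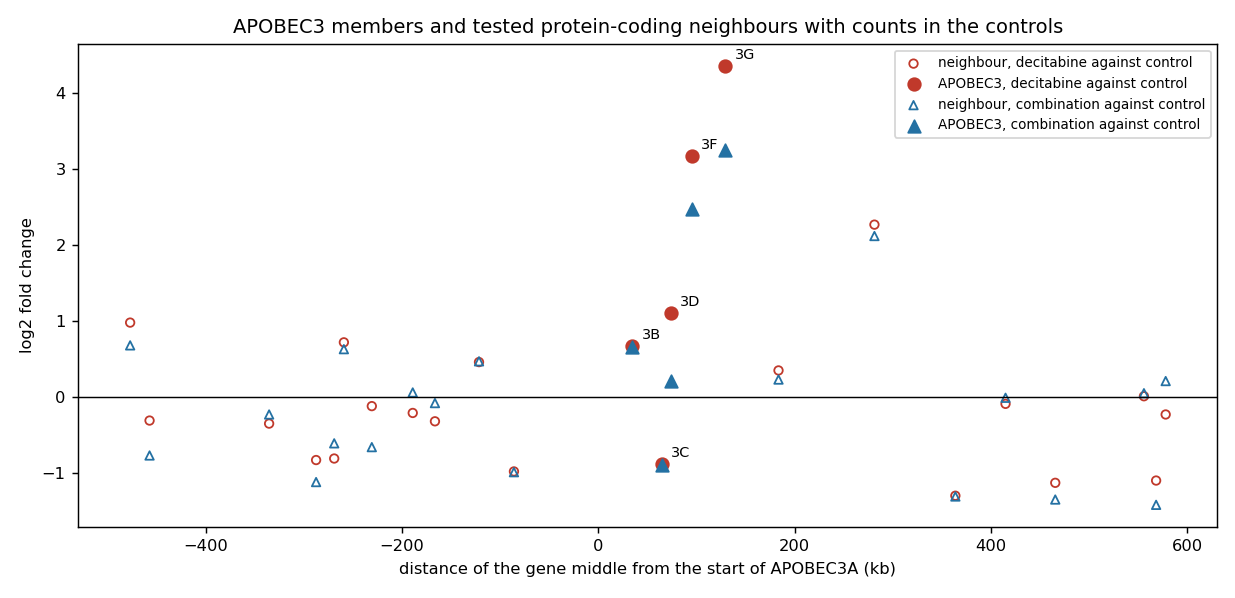
Log2 fold changes (y axis) of the 5 tested members (filled) and of the tested protein-coding neighbours with counts in the controls (open), by distance of the gene's middle from the start of APOBEC3A in kb (x axis), for decitabine (circles) and the combination (triangles) against controls. APOBEC3G and APOBEC3F had the largest values shown, and neighbours of either direction stood on both sides of the cluster. MGAT3, a tested neighbour on the telomeric side with no count in the controls, is not shown. Its fitted log2 fold changes were larger, at 6.73 with decitabine and 6.47 with the combination.

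The genes with the most similar pattern over the 9 libraries differed between members. Likeness was the root mean square difference of log2(CPM + 0.5), each gene centred on its control mean, computed for the 15318 genes that averaged 1 CPM or more. For APOBEC3B these were MFSD2A, a lipid transporter, at 0.061 and QSOX1, a sulfhydryl oxidase, at 0.069. For APOBEC3C they were SLC41A3, of a magnesium transporter family, at 0.086 and PPP1R26 at 0.087. For APOBEC3D they were ENSG00000260430 at 0.142 and OGFR, the opioid growth factor receptor, at 0.162. For APOBEC3F they were SLCO4A1-AS2 at 0.139 and LINC02985 at 0.146, and for APOBEC3G they were LINC01111 at 0.174 and NOC2LP1 at 0.214. The added 0.5 CPM compresses changes of low genes: the fitted log2 fold changes of NOC2LP1 were 9.91 with decitabine and 9.07 with the combination, far above those of APOBEC3G. No member was among the nearest genes of another member.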

How the data were processed

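RNA of treated PC-3 cells was sequenced on a BGISEQ-500. Per the submitters' processing notes, the authors trimmed reads with Trim Galore 0.6.4 and counted them with kallisto, whose version the notes give as 0.4.6 and the study's methods give differently. They deposited estimated counts per gene, which need not be whole, and log2 CPM, which were not used here. The annotation release and library strand are not given in the sources used here. Of 60617 identifiers, 60357 matched GENCODE release 44.

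Estimated counts were rounded and tested with edgeR 4.0.16 in R 4.3.3 (TMM scaling, filterByExpr, robust quasi-likelihood fit, all 9 libraries, Benjamini-Hochberg adjustment over 18532 genes, threshold 0.05). Levels are TMM-scaled CPM. Groups came from the sample labels. Alternatives were DESeq2 1.42.0, voom with limma 3.58.1, other scaling, other filters, a replicate block and leaving out each library. The test was checked on simulated data. Depth was 21934307 to 22489684 counts per library, and members of a few counts carry wide intervals.

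The members, gene lists and tests were chosen with earlier results of these data known. All 7 members are named. From each list up to 4 genes are named: the 2 called genes with the largest rise and the 2 with the largest fall with decitabine. For each tested member the 2 genes nearest in pattern are named, and the nearest neighbour gene on each side. Genes named beyond this (UNG, RNASEH2C, KRT18, MGAT3, the androgen receptor, KLK3, CD2, MS4A1, NKG7, APOBEC1, APOBEC4 and the read-through gene) were chosen after their values were seen.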

Additional observations from a re-analysis of the deposited data

How the results depend on the processing

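Against controls, the members called numbered 5 to 6 with decitabine and, for the combination, 4 to 5 over 17 alternatives, and all called members kept their direction; APOBEC3H was the member added, where the filter let it pass. Between combination and decitabine 1 to 3 members were called when a library was left out: APOBEC3G alone (1) without decitabine replicate 2 or 3 or combination replicate 1 or 2, and also APOBEC3F (3) without combination replicate 3. Calls over all genes moved too, from 1421 higher and 1487 lower of 18532 in the main fit. They were 408 and 596 of 18961 without decitabine replicate 2, and 1465 and 1521 of 18887 without decitabine replicate 3. Leaving out combination replicates 1, 2 and 3 gave 591 and 773 of 19009, 381 and 480 of 19001, and 2066 and 1997 of 18939. APOBEC3F was also called under voom and limma (-0.73, adjusted p = 0.041), with no filter on low counts (-0.69, 0.034) and under the replicate block (-0.72, 0.043). The log2 difference of APOBEC3B changed sign with no filter (0.0) and without decitabine replicate 2 (0.0), decitabine replicate 3 (0.07) or combination replicate 1 (0.06), a leave-one-out range of -0.09 to 0.07. That of APOBEC3C did so without decitabine replicate 2 (0.02), decitabine replicate 3 (0.01) or combination replicate 3 (0.05), a range of -0.09 to 0.05. These values are near 0 and the cause was not tested. Scaling by library size alone moved the all-gene median of decitabine against control (log2) from 0.035 to 0.281, and 8849 genes were then called higher and 3746 lower in place of 6729 and 6030. It also moved the controls' summed level to 71.9 CPM per kb, below the 75.8 of decitabine and above the 68.2 of the combination, so that the direction from controls to decitabine turned. With the length of all exons, the summed level with decitabine was 63.7 CPM per kb and the APOBEC3C share 53.9%.

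Replicate numbers were not taken as pairs in the main fit. Deviations of same-numbered libraries correlated at -0.02 to 0.23, and those of differently numbered libraries at -0.22 to 0.06. The value of 0.23 was reached between decitabine and combination, in replicate 1 and in replicate 3. Whether same-numbered libraries of these groups share a source was not tested. With the replicate block, 5, 4 and 3 members were called with decitabine against control, combination against control and combination against decitabine. Of all 18532 genes, the block called 6808 higher and 6137 lower, 6735 and 5938, and 1766 and 1890 in these comparisons. APOBEC3A and APOBEC3H are limited by their counts.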
